A study of Homo sapiens with 6 samples.

Results

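The 10 genes described here are BCL2, BCL2L1, MCL1, BCL2L11, BBC3, PMAIP1, BMF, BAX, BAK1 and BID, the core of the BCL2 family. They were chosen by name, each matched exactly 1 of the 36459 rows of the gene table, and all 10 were among the 14626 genes with enough counts to be tested. The RNA came from parental PC9 cells, which are human lung cancer cells (non-small cell type) with an activating EGFR mutation, and from persister cells (PS), which are the PC9 cells that remained once the culture had spent 6 days with erlotinib at 15 µM. Erlotinib inhibits the kinase of EGFR. Medium and erlotinib were renewed every 3 days. There were 3 libraries of parental PC9 cells from 3 independent cultures and 3 PS libraries pooled from 9 independently cultured replicates, all of the same line and genotype. Erlotinib was present at collection in all PS cultures and in no PC9 culture, so exposure to the drug and the persister state cannot be told apart.

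The BCL2 family decides whether the outer mitochondrial membrane is opened during apoptosis. BAX and BAK1 are the effectors that form the pores through which cytochrome c escapes. BCL2, BCL2L1 (which encodes BCL-XL) and MCL1 hold the effectors and their activators in check. The BH3-only proteins, here BCL2L11 (BIM), BBC3 (PUMA), PMAIP1 (NOXA), BMF and BID, occupy the groove of the anti-apoptotic proteins or activate BAX and BAK1 directly. How far the anti-apoptotic proteins are already filled is what is called priming. In EGFR-mutant lung cancer, ERK signaling is known to keep BIM low, by phosphorylation that leads to its degradation and by holding back FOXO3, and BIM is a known mediator of death under EGFR inhibitors. The values below are of RNA, and protein levels, phosphorylation and binding between the proteins were not measured in these libraries.

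The BH3 domain, which in BH3-only proteins is the helix that fits the groove, is what all members share beyond the choice by name. A search of the coding sequence of the most counted annotated transcript of each member for a leucine, 3 other residues, a glycine or an alanine and an aspartate gave 1 match in each of the 10 genes. The stretches are shown because all 10 members encode this pattern. They are read 5′ to 3′ from the transcripts of GENCODE 44 on GRCh38, and capitals mark the 18 bases that encode these 6 residues.
BCL2: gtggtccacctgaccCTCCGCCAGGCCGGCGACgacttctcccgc
BCL2L1: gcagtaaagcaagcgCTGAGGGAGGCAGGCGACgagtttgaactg
MCL1: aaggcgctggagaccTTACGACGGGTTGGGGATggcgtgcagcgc
BCL2L11: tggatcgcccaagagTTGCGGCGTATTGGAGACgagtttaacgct
BBC3: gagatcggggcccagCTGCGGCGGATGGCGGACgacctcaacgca
PMAIP1: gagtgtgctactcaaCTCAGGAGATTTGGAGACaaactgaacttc
BMF: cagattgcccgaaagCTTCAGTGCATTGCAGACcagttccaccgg
BID: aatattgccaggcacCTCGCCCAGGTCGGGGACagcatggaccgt
BAX: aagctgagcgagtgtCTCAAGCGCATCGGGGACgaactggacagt
BAK1: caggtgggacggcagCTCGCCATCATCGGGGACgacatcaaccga

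The residue before the aspartate was an alanine in BBC3 and BMF and a glycine in the other 8 genes. The capitals of the anti-apoptotic genes lie at chr18:63318361-63318378 in exon 2 of 3 of BCL2-201, at chr20:31721934-31721951 in exon 2 of 3 of BCL2L1-201 and at chr1:150578877-150578894 in exon 1 of 3 of MCL1-202, each on the minus strand. Those of the BH3-only genes lie at chr2:111150103-111150120 in exon 3 of 4 of BCL2L11-204 and at chr18:59902673-59902690 in exon 2 of 2 of PMAIP1-202, both on the plus strand. On the minus strand they lie at chr19:47226591-47226608 in exon 3 of 4 of BBC3-203, at chr15:40104207-40104224 in exon 3 of 4 of BMF-202 and at chr22:17739427-17739444 in exon 4 of 6 of BID-211. The effectors have theirs at chr19:48955787-48955804 on the plus strand in exon 3 of 5 of BAX-201 and at chr6:33575399-33575416 on the minus strand in exon 4 of 6 of BAK1-201.

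The libraries held between 29476725 and 34893782 gene counts, and libraries of the same group differed by more than sampling noise, so all 6 were kept as separate replicates. PC9 replicate 1 stood apart most. Its chi-square per degree of freedom, a measure of that difference, was 21.1 and 9.54 against PC9 replicates 2 and 3. Between PC9 replicates 2 and 3 it was 5.45, and between PS libraries it ran from 3.53 to 5.38. Levels are given as TMM-normalized CPM, which scales the counts to a fixed library size. They are relative to the other RNA in the library, and in bulk RNA fewer cells that express a gene and less of its RNA per cell cannot be told apart. Differences were tested with edgeR's quasi-likelihood test, and a gene was called changed at a Benjamini-Hochberg adjusted p under 0.01. The epithelial markers of the labelled cell type were present in all libraries, summing to between 5574 and 5985 CPM in PC9 and between 3331 and 3499 CPM in PS, with KRT8, KRT18, KRT19 and EPCAM lower and CDH1 higher in PS. The 8 markers of blood, endothelial and fibroblast cells summed to between 89.3 and 91.7 CPM in PC9 and between 46.5 and 53.1 CPM in PS. Most of that sum was CD68, which fell by 1.83 on the log2 scale, and COL1A1, which rose by 1.47, while CD3E had no count in any library. PECAM1 was low throughout and fell by 4.35 on the log2 scale. What part these shifts have in the results on the BCL2 family was not tested.

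Of the 10 members 6 were called, 4 higher and 2 lower in PS, against 56.8% of all genes tested, of which 28.7% were called higher and 28.1% lower. The share of members called was thus near that of genes in general, and what follows describes which members moved and in which role. BCL2L11 had the largest change of the members. In order of size, those higher were BCL2L11, BMF, BCL2 and BAK1, and those lower were BCL2L1 and MCL1. BBC3, PMAIP1, BAX and BID did not pass. The PC9 and PS libraries did not overlap for 7 of the 10 members, against 71.3% of all genes tested. The median log2 fold change was 0.084 over the members and -0.0061 over all genes tested.

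**Figure D1:**
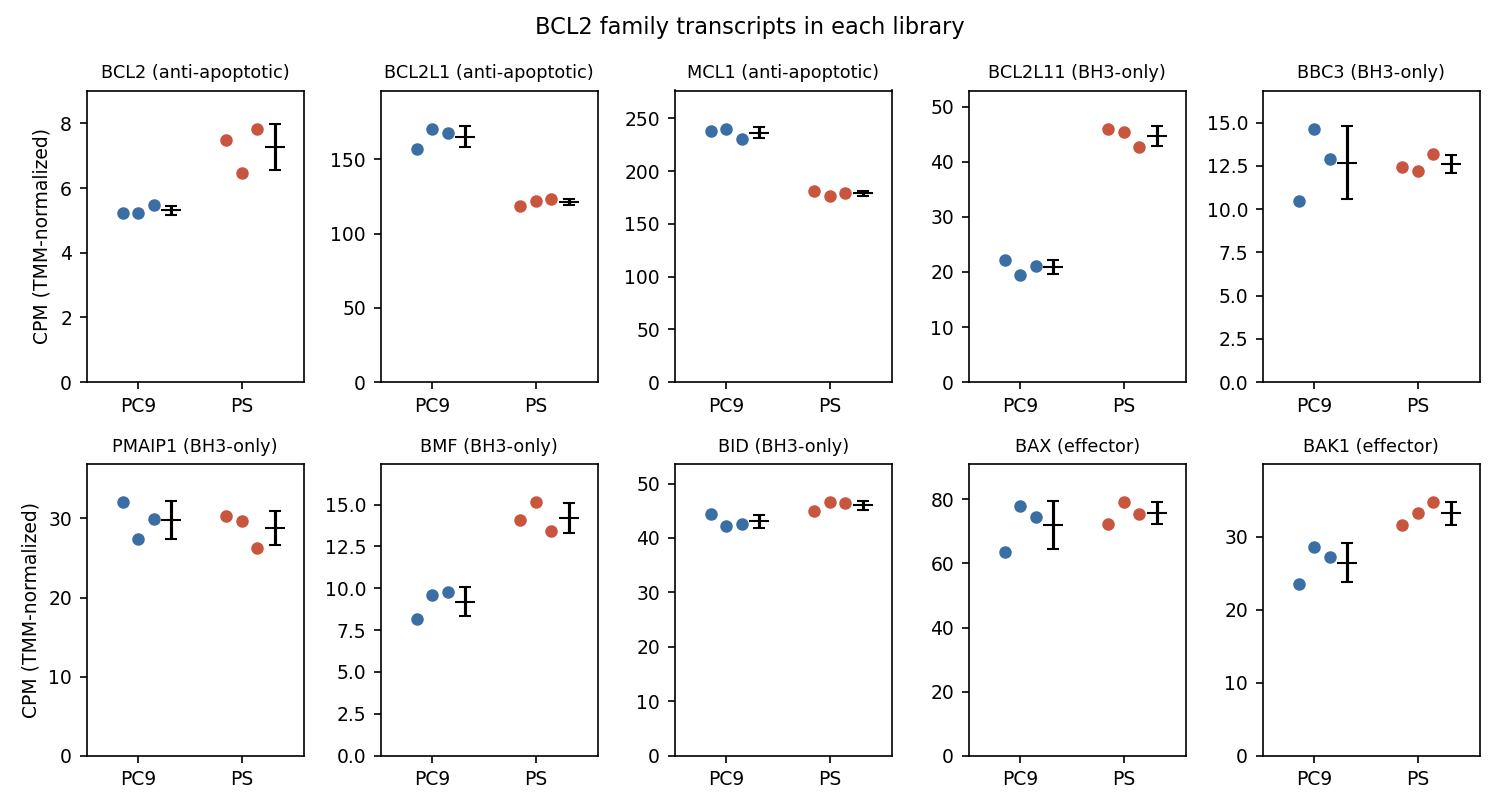
Each panel plots the TMM-normalized CPM of a member in the 3 PC9 libraries (blue) and the 3 PS libraries (red), from 0, with the mean and SD of each group in black. BCL2L11 stood between 42.7 and 46.0 CPM in PS and between 19.5 and 22.1 CPM in PC9, MCL1 and BCL2L1 were lower in all 3 PS libraries, and the groups of BBC3, PMAIP1 and BAX overlapped.

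Among the anti-apoptotic genes, the pair with the most RNA fell and the scarce one rose. MCL1 (ENSG00000143384, chr1:150560895-150579738 of GRCh38), a short-lived protein that restrains BAK1 and binds BIM, PUMA and NOXA, stood at 238, 240.2 and 231 CPM in PC9 replicates 1 to 3 and at 181, 176 and 179 CPM in PS replicates 1 to 3. All PS libraries lay below all PC9 libraries, and the replicates of each group were close together. The means were 236 ± 5.14 CPM in PC9 and 179 ± 2.40 CPM in PS (SD, n = 3 each), a log2 fold change of -0.40 (SE, the standard error, 0.0348, and adjusted p = 1.88e-06 by edgeR). ADAMTSL4-AS1, on the same strand, covers 5.27% of the exonic bases of MCL1. BCL2L1 (ENSG00000171552, chr20:31664452-31723989) stood at 157, 171 and 168 CPM in PC9 and at 119, 122 and 123 CPM in PS. Here too the groups did not overlap, with means of 165 ± 7.15 and 121 ± 2.33 CPM (SD, n = 3), a log2 fold change of -0.45 (SE 0.0415, adjusted p = 3.36e-06 by edgeR). The annotation places the antisense gene ABALON over 41.3% of the exonic bases of BCL2L1, and since no source used here says that strand was used in counting, reads of this pair cannot be told apart with certainty.

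BCL2 (ENSG00000171791, chr18:63123346-63320128), the founding member of the family, stood at 5.23, 5.23 and 5.47 CPM in PC9 and at 7.50, 6.48 and 7.84 CPM in PS. The rise came from a low level, between 178 and 184 counts per library in PC9 and between 204 and 268 in PS. Its log2 fold change was 0.46 (SE 0.0974, adjusted p = 0.00166 by edgeR). Without PS replicate 3, the highest library, the difference was 0.39 and no longer called (edgeR adjusted p = 0.0113). Of the other anti-apoptotic relatives, BCL2L2 (BCL-w) was at 23.5 ± 2.28 CPM in PC9 and 23.1 ± 1.54 CPM in PS (SD, n = 3) and was not called (edgeR adjusted p = 0.803), while BCL2A1 and BCL2L10 had too few counts to be tested.

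Among the BH3-only genes, BCL2L11 and BMF rose and the other 3 were not called. BCL2L11 (ENSG00000153094, chr2:111119378-111168444) encodes BIM, which binds all the anti-apoptotic members and activates BAX and BAK1 directly. It stood at 22.1, 19.5 and 21.1 CPM in PC9 and at 46.0, 45.3 and 42.7 CPM in PS. Every PS library was far above every PC9 library, and the spread within each group was small beside the gap. The mean rose 2.14-fold from 20.9 ± 1.36 to 44.7 ± 1.75 CPM (SD, n = 3), a log2 fold change of 1.10 (SE 0.0581, adjusted p = 4.09e-08 by edgeR). By size of the rise it took place 747 among the genes tested. Exons of MIR4435-2HG on the opposite strand cover 10.8% of its exonic bases.

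BMF (ENSG00000104081, chr15:40087890-40108892), a BH3-only protein tethered to the actin cytoskeleton through a dynein light chain, stood at 8.19, 9.61 and 9.77 CPM in PC9 and at 14.1, 15.2 and 13.4 CPM in PS. The groups were well apart. The mean rose 1.55-fold, from 9.19 ± 0.867 to 14.2 ± 0.883 CPM (SD, n = 3), and the log2 fold change was 0.63 (SE 0.0850, adjusted p = 6.25e-05 by edgeR). BMF-AS1, on the opposite strand, covers 8.46% of the exonic bases of BMF. BID (ENSG00000015475, chr22:17734138-17774770), which caspase 8 cleaves to link death receptors to mitochondria, stood at 44.3, 42.3 and 42.5 CPM in PC9 and at 45.0, 46.6 and 46.4 CPM in PS. The groups did not overlap, but the gap was narrow and the log2 fold change of 0.096 (SE 0.0433) did not pass (edgeR adjusted p = 0.0700).

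BBC3 and PMAIP1 are BH3-only genes known to be induced by cellular stress. BBC3 (ENSG00000105327, chr19:47220822-47232766) stood at 10.5, 14.7 and 12.9 CPM in PC9 and at 12.4, 12.2 and 13.2 CPM in PS. The PS libraries all fell within the range of the PC9 libraries. Its log2 fold change was -0.0076 with a standard error of 0.107 (edgeR adjusted p = 0.955). PMAIP1 (ENSG00000141682, chr18:59899996-59904305), whose product binds MCL1, stood at 32.1, 27.4 and 30.0 CPM in PC9 and at 30.4, 29.7 and 26.3 CPM in PS, again with overlap. The log2 fold change of PMAIP1 was -0.052 with a standard error of 0.0720 (edgeR adjusted p = 0.539). These standard errors leave room for small changes in either direction, and leaving out single libraries turned the sign of both.

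Of the effectors, BAK1 rose and BAX was not called. BAK1 (ENSG00000030110, chr6:33572547-33580293), which sits in the mitochondrial membrane before any death signal, stood at 23.5, 28.6 and 27.2 CPM in PC9 and at 31.7, 33.2 and 34.7 CPM in PS. All PS libraries were above all PC9 libraries. Its log2 fold change was 0.33 (SE 0.0717, adjusted p = 0.00187 by edgeR). Without PS replicate 3 it was 0.29 and not called (edgeR adjusted p = 0.0124), so without that library 4 of the 10 members were called. Of all genes, 7054 were called without that library, against 8307 with all libraries. BAX (ENSG00000087088, chr19:48954815-48961798), which moves from the cytosol to mitochondria, stood at 63.5, 77.9 and 74.6 CPM in PC9 and at 72.2, 79.2 and 75.6 CPM in PS. PC9 replicate 1 was the lowest, and the other libraries of both groups lay close together. Its log2 fold change was 0.072 (SE 0.0696, adjusted p = 0.382 by edgeR).

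**Figure D2:**
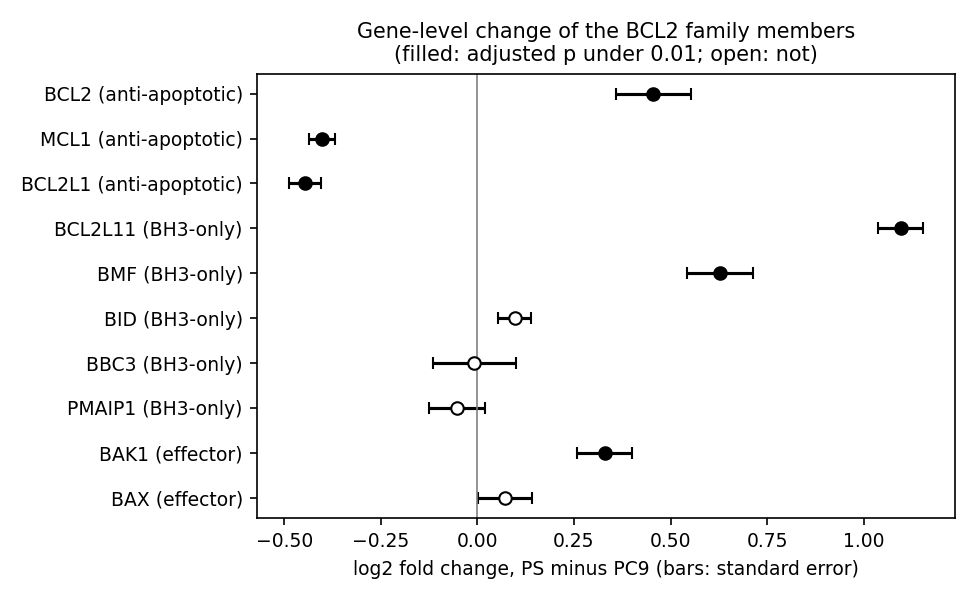
The plot gives the log2 fold change of each member, PS minus PC9, with its standard error, grouped by role; filled points passed the limit on the adjusted p and open points did not. BCL2L11 stands at 1.10, MCL1 and BCL2L1 at -0.40 and -0.45, and BBC3, PMAIP1, BAX and BID lie within 0.1 of 0.

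To set the members beside each other, CPM was divided by transcript length, taken for each gene as the mean length of its annotated transcripts weighted by their counts (CPM per kb). The order between genes rests on these lengths, and the SD covers the libraries only. The annotated transcripts that gave the lengths held between 56.6% and 71.1% of the counts of BCL2L11 and between 58.2% and 97.3% of those of BID. The levels per kb of BCL2L11 and BID, and the sums and ratios that hold them, are therefore less certain. In PC9 the levels per kb were highest for BCL2L1, at 64.7 ± 2.80 (SD, n = 3), MCL1, at 60.0 ± 1.30, and BAX, at 59.1 ± 6.19, and the libraries of MCL1 and BAX overlapped. BID followed at 27.8 ± 0.732, PMAIP1 at 16.8 ± 1.32 and BAK1 at 12.2 ± 1.22. BBC3 at 7.10 ± 1.17, BCL2L11 at 4.20 ± 0.272, BMF at 2.05 ± 0.194 and BCL2 at 0.795 ± 0.0203 CPM per kb were the lowest. From BAX downward neighbouring members did not overlap in PC9.

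In PS the order changed at the top and in the middle. BAX stood above BCL2L1 and MCL1, at 62.1 ± 2.84 against 47.5 ± 0.912 and 45.4 ± 0.610 CPM per kb (SD, n = 3). BID at 29.7 ± 0.558 was followed by PMAIP1 at 16.2 ± 1.23 and BAK1 at 15.3 ± 0.710 CPM per kb, whose libraries overlapped. BCL2L11, at 8.97 ± 0.352, stood above BBC3, at 7.05 ± 0.276 CPM per kb, whereas in PC9 it had stood below it. That crossing rests on the length taken for BCL2L11. BMF at 3.17 ± 0.197 and BCL2 at 1.09 ± 0.106 CPM per kb stayed at the bottom.

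The balance between the sides of the family was described by ratios of these length-scaled levels within each library, which do not depend on the normalization. They are combinations of the values above and were given no test. Summed over the roles, the anti-apoptotic genes held 126 ± 2.92 CPM per kb in PC9 and 94.0 ± 0.718 CPM per kb in PS (SD, n = 3). BCL2L1 made up 51.6% of that sum in PC9 and 50.6% in PS, MCL1 47.8% and 48.3%, and BCL2 0.633% and 1.16%. The BH3-only genes held 57.9 ± 0.933 CPM per kb in PC9 and 65.1 ± 1.29 CPM per kb in PS. Within them the share of BCL2L11 went from 7.24% to 13.8%, while BID, with 48.0% and 45.7%, remained the largest part. The effectors held 71.3 ± 7.41 and 77.4 ± 3.25 CPM per kb, with overlap between the groups.

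The log2 ratio of the BH3-only sum over the anti-apoptotic sum was -1.06, -1.17 and -1.11 in PC9 and -0.52, -0.50 and -0.57 in PS. The groups were apart by 0.59 between the means, or 1.50-fold, while the SD within a group was at most 0.0567. On the linear scale the mean ratio was 0.462 in PC9 and 0.693 in PS. The effector sum over the anti-apoptotic sum was -0.96, -0.74 and -0.76 in PC9 and -0.34, -0.22 and -0.28 in PS on the log2 scale, a difference of 0.54. Both ratios stayed below 0 on the log2 scale in all libraries. At the lengths taken, the anti-apoptotic sum among the chosen members was thus larger than either of the others. This order of the sums, like that of the genes, rests on those lengths. Relatives outside the members are not in these sums. BOK, a BAX-like effector, had means of 74.1 CPM in PC9 and 97.4 CPM in PS. The BH3-only gene BAD had 37.9 and 36.6 CPM, and the anti-apoptotic BCL2L2 had 23.5 and 23.1 CPM. Which sum would be larger with such genes included was not tested.

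Of the ratios between single genes, those of BCL2L11 over MCL1 and over BCL2L1 moved most. BCL2L11 over MCL1 was -3.77, -3.96 and -3.79 in PC9 and -2.32, -2.30 and -2.40 in PS on the log2 scale, a 2.83-fold difference of the means. BCL2L11 over BCL2L1 differed 2.91-fold in the same way. Over BCL2, which itself rose, the log2 ratio of BCL2L11 went from 2.40 ± 0.0963 to 3.05 ± 0.181 (SD, n = 3). BMF over BCL2L1 differed 2.11-fold, from -4.98 ± 0.0814 to -3.91 ± 0.0975.

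Ratios whose numerator was not called differed between the groups too. BBC3 over MCL1 was 0.41 higher in PS on the log2 scale and PMAIP1 over MCL1 was 0.35 higher, and in both the groups did not overlap although BBC3 and PMAIP1 themselves did. MCL1, the denominator of both, had itself a log2 fold change of -0.40. BAX over BCL2L1 went from -0.24, -0.064 and -0.10 in PC9 to 0.35, 0.44 and 0.36 in PS and so changed from below to above 0. BAK1 over MCL1, in which the numerator rose and the denominator fell, was 0.73 higher. BCL2L1 over MCL1 was 0.11 ± 0.0746 in PC9 and 0.066 ± 0.0437 in PS (SD, n = 3), with overlapping groups.

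**Figure D3:**
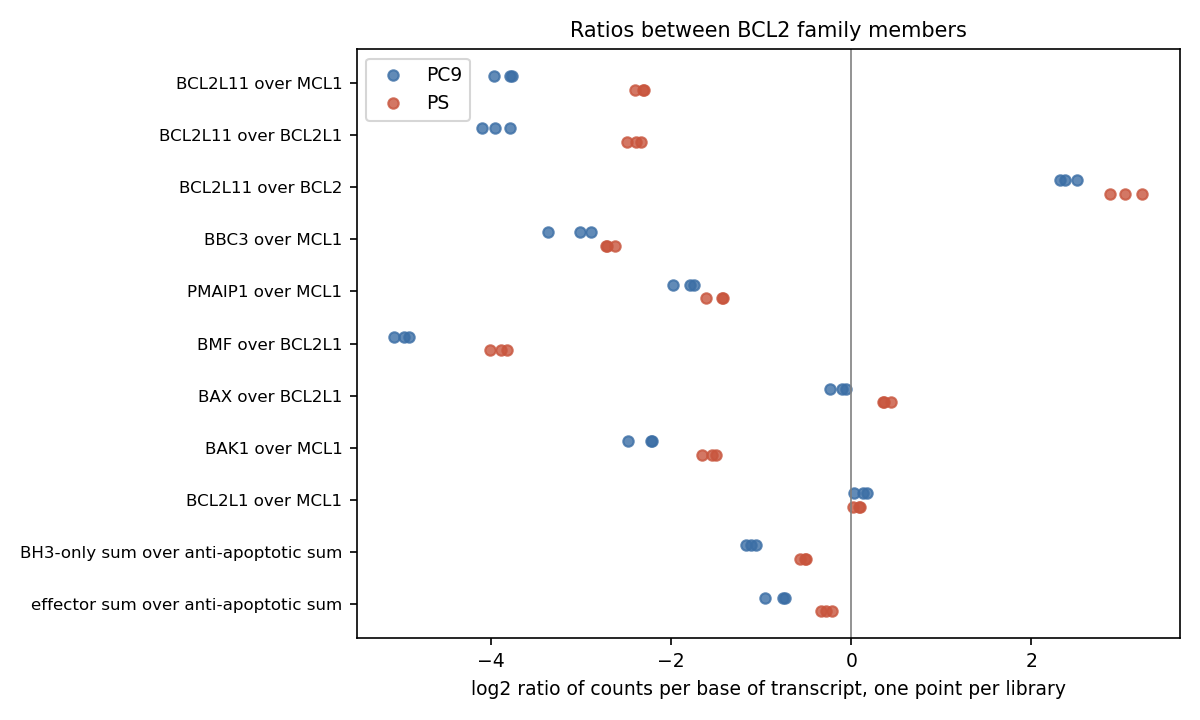
Each row plots the log2 ratio of length-scaled counts of the genes named, with the 3 PC9 libraries in blue and the 3 PS libraries in red; the lowest rows are the sums over the roles. In 10 of the 11 rows the PS libraries lie to the right of the PC9 libraries, by 1.50 for BCL2L11 over MCL1 and by 0.59 for the BH3-only sum over the anti-apoptotic sum, and BCL2L1 over MCL1 overlaps. Most of these 10 rows have MCL1, BCL2L1 or the anti-apoptotic sum as denominator. As both genes were lower in PS, the rows are not separate results.

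At the level of transcripts, 39 of the 75 annotated transcripts of the members were tested and 2 were called, against 7.8% of all transcripts tested. Unadjusted p-values under 0.05 were found for 11 of the 39, against 29% of all transcripts tested. The called transcripts were BCL2L11-204 and MCL1-202, each the main annotated form of its gene. BCL2L11-204 (ENST00000393256), which encodes the 198 residues of BIM-EL, had 527, 412 and 428 counts in PC9 and 735, 935 and 956 in PS. Its log2 fold change was 1.02 (SE 0.114, adjusted p = 0.00270 by edgeR), and with single libraries left out it remained called only without PC9 replicate 1. Without PC9 replicate 2 or 3 or PS replicate 1, 2 or 3 it ran from 0.95 to 1.08 and the adjusted p from edgeR from 0.0103 to 0.0192. It made up 95.1% of the counts on annotated BCL2L11 transcripts in PC9 and 97.3% in PS, but these held only between 56.6% and 71.1% of the counts of the gene, since the other transcripts of the authors' older annotation were not matched. MCL1-202 (ENST00000369026), which encodes the full 350 residues, had 7993, 7873 and 7518 counts in PC9 and 5125, 5365 and 5922 in PS, a log2 fold change of -0.43 (SE 0.0300, adjusted p = 0.000511 by edgeR). It held 96.9% of the counts of MCL1 in PC9 and 96.8% in PS.

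Splicing at BCL2L1 yields proteins of opposite effect. The longer frame of 233 residues encodes anti-apoptotic BCL-XL, and the use of an earlier splice site at the end of exon 2 removes 189 bases and leaves the 170 residues of pro-apoptotic BCL-XS. The junctions are shown because the 2 reading frames part there, and the transcripts also differ in length outside the frame. They are read from the transcripts on the minus strand of chromosome 20, with 20 bases on each side, and capitals mark the exon that follows.
BCL2L1-201: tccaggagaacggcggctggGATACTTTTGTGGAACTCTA
BCL2L1-202: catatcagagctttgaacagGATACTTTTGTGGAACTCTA

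BCL2L1-201 held 71.7 ± 4.74% of the BCL2L1 counts in PC9 and 76.7 ± 1.72% in PS (SD, n = 3), and BCL2L1-203, with the same frame, 18.9 ± 3.48% and 14.7 ± 1.90%. Their log2 fold changes were -0.38 and -0.82, and neither passed (edgeR adjusted p = 0.0354 and 0.0130). The pair of transcripts with the 170-residue frame, BCL2L1-202 and BCL2L1-205, was singled out for that frame after the values had been seen. Together they held 9.09%, 7.41% and 7.35% in PC9 and 7.02%, 7.32% and 6.87% in PS. The groups were apart by a margin smaller than the spread between the PC9 libraries.

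A change in the shares of the transcripts of a gene was tested with edgeR's usage test in 10545 genes, of which 1.86% were called. None of the 9 members that could be tested was called, none had an unadjusted Simes p under 0.05, and the smallest, that of BBC3, was 0.213 (edgeR adjusted p = 1.00). BCL2L11 could not be tested because only 1 of its annotated transcripts had enough counts. BBC3-204, which encodes 261 residues, had 34, 0 and 0 counts in PC9 and 25, 68 and 70 in PS. Without PC9 replicate 1 the usage of BBC3 was called (edgeR adjusted p = 0.00880). A count of 0 allows a share of up to 0.690% of the counts on annotated BBC3 transcripts, in the shallower of these libraries. BBC3-203, the 193-residue form, held 85.3 ± 5.28% of the counts in PC9 and 79.0 ± 4.32% in PS, and BBC3-205, a retained intron, 6.06 ± 1.57% and 2.82 ± 0.314%.

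For the other members the shares are given as the mean in PC9 and then in PS (SD, n = 3). BAX-201, of 218 residues, held 72.5 ± 2.90% and 76.2 ± 0.830% of the BAX counts, and BAX-202, of 192 residues, 19.3 ± 3.95% and 14.5 ± 1.66%. BAK1-201 held 97.4 ± 3.27% and 96.0 ± 1.18%. The form with the most counts was the same in both groups for BAX and for BAK1. PMAIP1-202, which encodes the 54 residues of NOXA, held 83.0 ± 3.76% and 80.5 ± 7.34%, and PMAIP1-201 16.3 ± 4.03% and 18.8 ± 7.79%. BCL2-201 and BCL2-202 share a frame of 239 residues. BCL2-201 held 54.9 ± 3.71% and 47.2 ± 2.48%, BCL2-202 34.4 ± 2.59% and 39.7 ± 3.61%, and BCL2-203 7.92 ± 0.822% and 7.97 ± 1.55%. In the next genes the shares varied widely between replicates, so that a shift of moderate size could not be seen. BMF-201 and BMF-202 encode the same 184 residues, and the share of BMF-201 ranged from 19.3% to 84.5% within PC9 alone. BMF-202 held 48.2 ± 31.0% in PC9 and 56.1 ± 7.38% in PS. For BID the annotated transcripts held between 58.2% and 97.3% of the counts of the gene. Of these, BID-211 took 38.7 ± 10.3% in PC9 and 43.3 ± 11.8% in PS, BID-208 41.0 ± 9.56% and 39.8 ± 9.70%, BID-203 11.3 ± 0.795% and 9.03 ± 1.79%, and BID-201 5.35 ± 1.35% and 3.91 ± 0.959%. All these are shares of counts, in which longer transcripts weigh more. With counts divided by transcript length, BID-208 held 65.7% and 64.6% and BID-211 20.7% and 23.4%. In the same way BAX-201 held 59.4% and 63.8% and BAX-202 26.9% and 20.7%.

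**Figure D4:**
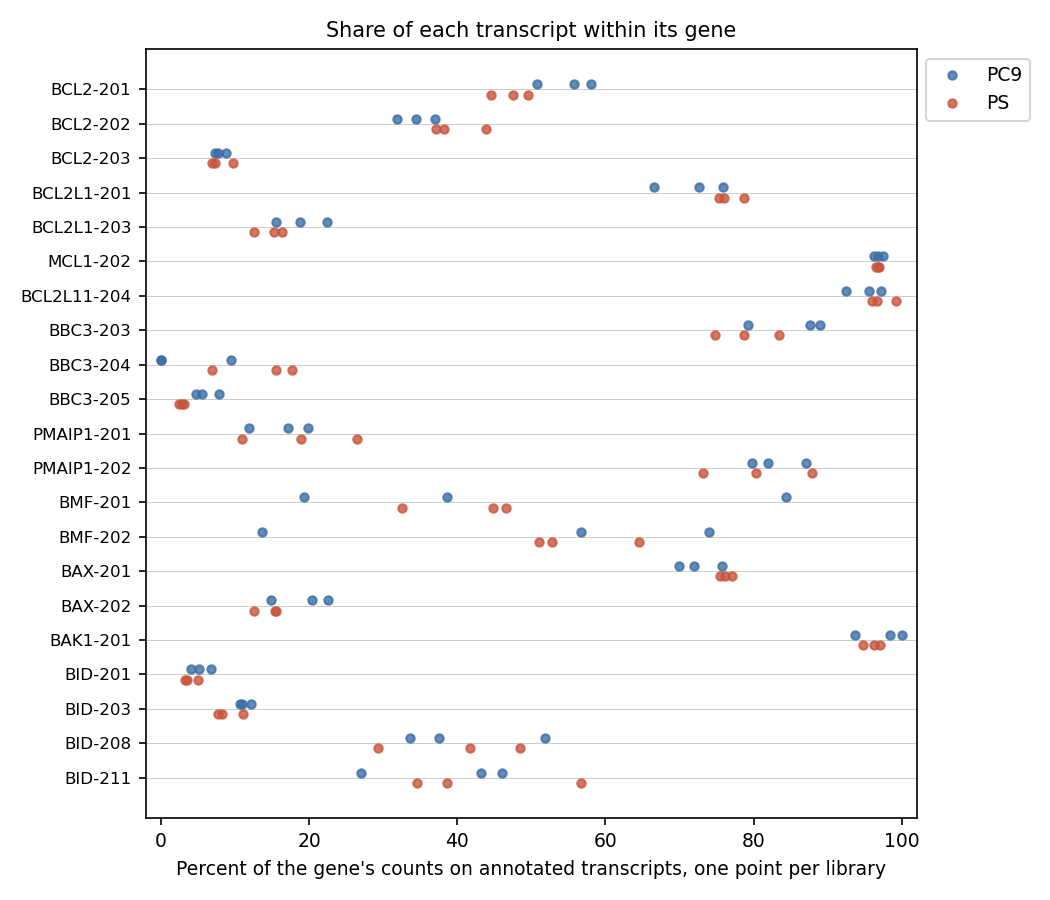
Each row plots the share of a transcript among the counts on annotated transcripts of its gene, in percent, for the 3 PC9 libraries (blue) and the 3 PS libraries (red). MCL1-202 lies near 97% in all libraries, the rows of BMF are widely scattered in PC9, and BBC3-204 is at 0 in 2 PC9 libraries.

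The members lie in a wider machinery, and the genes around them were read from lists of related function. Among 11 other BH3-only and BCL2-like genes 3 were higher and 1 lower. HRK, a BH3-only gene mostly known from neurons, rose from 1.74 ± 0.337 to 7.06 ± 0.501 CPM (SD, n = 3), a log2 difference of 2.02 (adjusted p = 2.94e-07 by edgeR). BOK, a BAX-like effector, rose by 0.39 and BCL2L13, a mitochondrial relative, by 0.19 on the log2 scale, which was not called without PS replicate 2 (adjusted p = 0.0133 by edgeR) or with library size as the only scaling (log2 fold change 0.13, adjusted p = 0.0202 by edgeR). BCL2L14 fell by 2.37 on the log2 scale, from 5.39 ± 0.905 to 1.04 ± 0.229 CPM. BAD and BIK, 2 further BH3-only genes, were not called, at log2 fold changes of -0.046 and -0.14.

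In a list of 15 genes of the apoptosome, its executioners and mitochondrial proteins, 2 were higher and 6 lower, with a median log2 fold change of -0.15. This list also holds the VDAC channels of the outer mitochondrial membrane, which are not executioners. VDAC1 (-0.15) and VDAC2 (-0.13) were among the 6 lower genes, and VDAC3 (0.051) was not called. CYCS, which encodes cytochrome c, rose by 0.88 on the log2 scale, from 123 ± 4.07 to 226 ± 0.843 CPM. CASP6 (-0.46), DFFA (-0.36), the inhibitor of the caspase-activated nuclease, and APAF1 (-0.35), the scaffold of the apoptosome, were lower by the log2 fold changes given. The count of 8 called genes fell to 4 without PC9 replicate 3, to 5 without PS replicate 2 and to 4 without PS replicate 3. Of the 5 tested inhibitors of apoptosis proteins, which bind or ubiquitinate caspases, 3 were higher and 0 lower. These were BIRC3 (log2 fold change 1.14), BIRC5 or survivin (0.45), which also serves in mitosis, and BIRC6 (0.40), while XIAP was at 0.16 and not called (edgeR adjusted p = 0.0184).

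In the death receptor pathway, whose caspase acts on BID, 2 of 10 genes were higher and 5 lower, with a median of -0.30. CASP10 (-0.84), TNFRSF1A (-0.68), TNFRSF10A (-0.67), a receptor of TRAIL, and CASP8 (-0.39) were the lower genes with the smallest p-values. The 2 higher genes were RIPK1 (0.24) and TNFRSF10B (0.27), also a receptor of TRAIL. TNFRSF10B went from 50.1 to 60.2 CPM, above TNFRSF10A, which went from 14.3 to 8.94 CPM. Of 8 genes that control the turnover or tethering of MCL1, BIM and BMF, 4 were higher and 2 lower. HUWE1, a ubiquitin ligase of MCL1, rose by 0.92 on the log2 scale, from 773 ± 77.6 to 1465 ± 96.9 CPM, and USP9X, a deubiquitinase of MCL1, rose by 0.38. DYNLL2, the light chain that tethers BMF, rose by 0.55, and TRIM17, a ubiquitin ligase also known to act on MCL1, fell by 1.06 on the log2 scale.

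Of 16 genes known to act on the transcription of BH3-only genes, which are 15 transcription factors and the pseudokinase TRIB3, 10 were higher and 2 lower, with a median log2 fold change of 0.18. ATF3 (1.60), DDIT3 or CHOP (1.34) and TRIB3 (1.20), which belong to the stress response downstream of ATF4, rose with the smallest p-values among those higher. The RNA of ATF4 itself rose by 0.21 on the log2 scale, from 507 ± 6.32 to 589 ± 17.7 CPM (adjusted p = 0.000242 by edgeR). TP63 fell by 3.27 on the log2 scale, from 3.91 ± 0.237 to 0.401 ± 0.0719 CPM. FOXO3, through which BCL2L11 is known to be induced, was at 131 ± 2.80 and 136 ± 3.42 CPM and was not called (edgeR adjusted p = 0.207). FOXO4 fell by 0.53 on the log2 scale (adjusted p = 0.000399 by edgeR) and FOXO1 was at 0.16 and not called (adjusted p = 0.0250 by edgeR). The FOXO genes were chosen after their values had been seen.

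The shares called in these apoptosis lists with more than 1 tested gene, from 36.4% of the BH3-only and BCL2-like genes to 75% of the transcriptional regulators and of the turnover and tethering genes, stand beside the 56.8% of all genes tested.

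**Figure D5:**
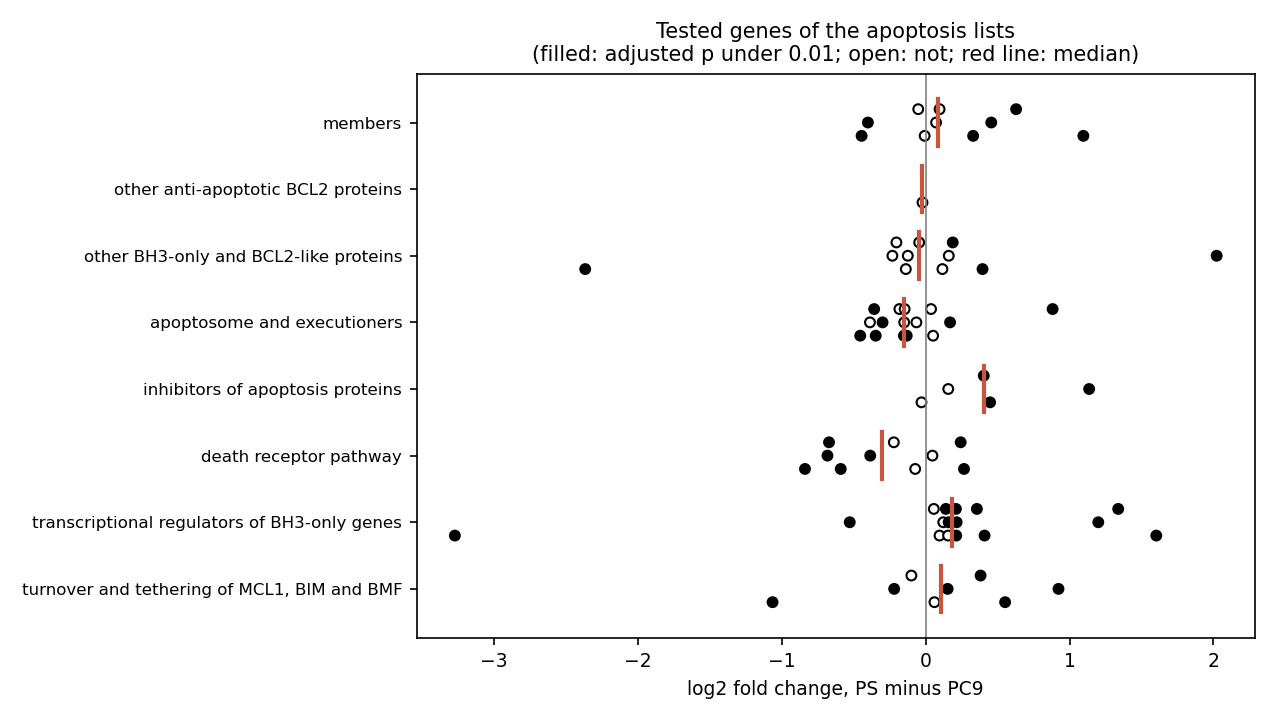
Each row plots the log2 fold change, PS minus PC9, of the tested genes of a list, filled where the adjusted p was under 0.01 and open where not, with the median as a red line. The medians run from -0.30 for the death receptor pathway to 0.40 for the inhibitors of apoptosis proteins, and TP63 at -3.27, BCL2L14 at -2.37 and HRK at 2.02 lie farthest out.

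The genes outside these lists whose pattern over the 6 libraries was most like that of BCL2L11 were BMP2K, PLOD2 and CLDN1. Likeness was measured as the root mean square difference of log2 CPM centred on the PC9 mean, which was 0.032, 0.032 and 0.040 for them. Their log2 fold changes were 1.07, 1.12 and 1.08, beside 1.10 for BCL2L11.

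The window from 250 bases before to 50 after the start of BCL2L11 in RefSeq (GRCh38.p14) holds GTAAACA, the core letters bound by FOXO factors, 223 bases before the start. It is shown because BCL2L11 is the member that rose most. These are the first 100 bases of that window, chr2:111120664-111120763 on the plus strand, which end 151 bases before the start, with the motif in capitals.
BCL2L11: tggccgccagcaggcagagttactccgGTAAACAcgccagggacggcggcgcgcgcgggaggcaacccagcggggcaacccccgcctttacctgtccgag

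Searched on both strands, GTAAACA was in 3.42% of all 35116 windows of this length and in 1 of the 15 windows of 9 members. MCL1 had no window and was not searched. The letters TGACTCA, bound by AP-1, were in 4.95% of all windows and in that of BBC3, 113 bases before its start. TGACGTCA, the CRE letters, were in 1.85% of all windows, TGATGCAA, letters bound by C/EBP-ATF pairs, in 0.866%, and neither was in a window of a member. A match is a stretch of letters and was not tested as a binding site.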

How the data were processed

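Bulk RNA-seq libraries of PC9 and PS cells, 3 each, were used. Groups and replicate numbers come from the sample labels, and culture and dose from the methods of the paper. The authors selected poly-A RNA (RNA integrity number 10 per the labels), ran Kallisto 0.46.1 on Ensembl transcripts of GRCh38 and deposited its estimated counts. These are unnormalized and rounded to integers, and there is a table by gene symbol and another by transcript. Libraries of another laboratory, which the paper analysed together with these in Sleuth 0.30.0, were not used here. Uncertainty in assigning reads between similar transcripts enters no test.

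The analysis used edgeR 4.0.16 in R 4.3.3 (filterByExpr defaults, TMM, glmQLFit and glmQLFTest, no block, Benjamini-Hochberg adjustment over all genes or transcripts, limit 0.01). The standard error is the size of the log2 fold change divided by the square root of F. The spread between 3 libraries sets the precision, and an exact permutation test of 3 against 3 cannot go below 0.1. Usage was tested with diffSpliceDGE and Simes p-values. Transcripts (167067 of 188753, with 95.78% of the counts) and coordinates were matched to GENCODE 44. Shares are of counts on matched transcripts, and intervals for counts of 0 (3 counts) cover counting error only. Promoter windows are from RefSeq.

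The members and the 10 lists were chosen with earlier results of these data known. A gene of these lists and the list that rests on it are not reported here. Named in the text were all members, up to 4 called genes of each list with the smallest p, list genes called with an absolute log2 fold change above 1, transcripts with a mean of at least 10 counts that were called or held 5% of the gene in either group, and the 3 genes nearest to BCL2L11. Other genes of the lists are given to complete a group and were chosen after their values were seen. Counts were simulated with 200 genes changed by 1 on the log2 scale, at a dispersion of 0.01. For that size, number and dispersion only, the gene-level test recovered 95.5% (1.04% of calls wrong). The transcript test recovered 76.5% (3.16%), and the usage test 66% of 194 genes (3.03%). Recovery at the spread of transcript counts between these libraries, or with as many genes changed as were called here, was not tested. Alternatives were DESeq2 1.42.0, limma 3.58.1 (voom), other normalizations, no filter, a replicate block, sums of transcript counts per gene, omission of each library, other lengths and a limit of 0.05. Figures were drawn with matplotlib 3.10.9.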

Additional observations from a re-analysis of the deposited data

How the results depend on the processing

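BCL2L11, BMF, BCL2L1 and MCL1 kept their direction and their call in all 14 alternatives run for each. With single libraries left out, the number of members called ran from 4 to 6, BCL2 from 0.39 to 0.53 and BAK1 from 0.25 to 0.39 on the log2 scale, and both lost their call only without PS replicate 3. The number of all genes called ran from 7054 to 8407 in the same fits, against 8307 with all libraries. The members that were not called changed sign in places. BBC3 was at 0.0066 with limma voom and ran from -0.13 to 0.11 with libraries left out, PMAIP1 from -0.11 to 0.010 and BAX from -0.011 to 0.13. The other BH3-only and BCL2-like genes called went from 4 to 8 at a limit of 0.05, and the called genes of the apoptosome list ran from 4 to 10 with libraries left out. All genes called went from 8307 to 9931 at a limit of 0.05. With single libraries left out, the log2 difference of the BH3-only sum over the anti-apoptotic sum ran from 0.56 to 0.61. That of BBC3 over MCL1 ran from 0.27 to 0.50. Leaving out 1 of 3 libraries moves a group mean by less than the SD of the group, so such ranges are narrow by construction.

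Transcript results depended more on the processing. DESeq2 called 11145 transcripts and 5 of the members (BCL2L1-201, BCL2L1-202 and BCL2L1-203 besides the 2 called by edgeR), against 4252 and 2. With libraries left out these counts ran from 1549 to 2649 and from 1 to 3, MCL1-202 being called each time, and the members with a called usage change from 0 to 1. The cause was not tested.

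The replicate numbers of the labels mark no shared culture, and the deviations of same-numbered libraries correlated at 0.12, 0.024 and 0.022. With a replicate block 8671 genes and 6 members were called, but only 813 transcripts, 0 of them of members, and 97 genes by usage against 196. A low count of reads limits BCL2 and the minor transcripts.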
